A study of Mus musculus with 6 samples.

Results

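The genes described here are the developmental transcription factor genes whose symbols begin with Hoxa to Hoxd, Pax, Lhx, Nkx, Dlx, Irx or Sox followed by a digit, and those named like Six2 to Six6. They were chosen by symbol alone, and probe sets annotated to several genes were left out. On the array, 190 of the 34945 probe sets with exactly 1 symbol belong to them, and they stand for 109 of 18193 genes. Of these genes, 64 have 1 probe set and 45 have several, up to 8 for Sox4. The annotation also brings in 12 non-coding genes named after their neighbours, such as Dlx1as and Sox2ot, with 14 probe sets and a highest intensity of 42.2.

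Hox, Pax, Lhx, Nkx, Dlx and Irx genes and the relatives of Six5 encode homeodomain or paired-domain proteins that fix position and cell identity in the embryo, and Sox genes encode proteins that bend DNA through a high mobility group (HMG) box. In differentiated cells most of them are textbook targets of Polycomb repression. Polycomb repressive complex 2 (PRC2), through its enzyme Ezh2, methylates lysine 27 of histone H3 over their CpG-rich start regions, and PRC1 binds there and compacts the chromatin. A few of them also act in lymphocytes: Sox4 in T cell development and in restraining Gata3, Sox13 in gamma delta T cells, and Pax5 in B cells.

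The 6 arrays cover 2 genotypes on the C57BL/6 strain, wild type and Ezh2 KO, each in 3 cultures with 1 array per combination. All cultures began with naive (CD44 low, CD62L high) splenic CD4 T cells on plate-bound antibody to the TCR beta chain at 10 µg/ml, with antibody to CD28 at 1 µg/ml and IL-2 at 15 ng/ml. They were harvested at day 5, after 2 days with and 3 days without these antibodies. Th1 cultures also had IL-12 at 1 ng/ml and a blocking antibody to IL-4, Th2 cultures IL-4 at 10 ng/ml and a blocking antibody to interferon gamma, and unpolarized cultures both blocking antibodies. The labels give neither the deleted part of Ezh2, the Cre line, the age of the mice nor any pooling, and nothing there tells whether arrays of a genotype share a mouse. The tests below therefore measure only the spread between these arrays, which may be technical.

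All 8 CD4 T cell markers had enough signal to test, with summed intensities of 73709 to 79739 in wild type and 71225 to 80631 in Ezh2 KO. Of these 8, Cd2 was lower in Ezh2 KO (-0.64 ± 0.13, limma adjusted p = 0.0369; not past the threshold with median centring). The Ezh2 transcript itself was 1.43-fold lower in Ezh2 KO (limma adjusted p = 0.0437; not past the threshold with median centring), with readings of 4876 to 4971 in Ezh2 KO against 6553 to 7677 in wild type. Some markers of other cells moved with genotype. The class II chain H2-Aa was 17.5-fold and the NK receptor gene Cd160 13.1-fold higher in Ezh2 KO. H2-Aa passed limma in 9 of 13 alternatives, Cd160 in 8 of 12 and the NK marker Fcer1g in 6 of 12. All 3 lost the call without the filter on dim genes and with any 1 culture left out. Summed intensities went from 387 to 639 in wild type to 1517 to 2424 in Ezh2 KO for myeloid markers (1 of 4 tested was higher, H2-Aa, with a median difference of -0.00 over the 4), and from 147 to 165 to 836 to 1046 for NK markers (2 of 2 higher). Of these lists, 6 of 10 myeloid and 3 of 5 NK markers stayed under intensity 64 on all arrays. The part of such cells in the results below was not tested. In bulk RNA, fewer cells of a type and less RNA per cell cannot be told apart.

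Most members gave little signal with or without Ezh2. An intensity of 64, close to the median of all values on the arrays (64.4), was used as the limit of usable signal. On at least 1 wild type array 25 of 190 member probe sets (13.2%) reached it, against 58.7% of all probe sets with 1 symbol. On at least 1 Ezh2 KO array 17 did (8.95%), against 58.4% of all. In genes, 19 of 109 reached the limit in wild type and 14 in Ezh2 KO. Only 5 probe sets in each genotype reached it on all 3 arrays, and only those of Hoxa5 and Sox12 did so on all 6. The count was lower in Ezh2 KO than in wild type, and that difference was not tested.

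Triplets of readings are given below in the order unpolarized, Th1, Th2. The median over member probe sets ranged from 13.5 to 15.4 on wild type arrays and from 13.2 to 13.5 on Ezh2 KO arrays. The median of all probe sets with 1 symbol lay between 83.4 and 90.9 on the same arrays. The highest member reading on an array fell between 115 and 379. On all 6 arrays, 16 probe sets of 15 genes were at or under 11.3, the floor set for tests, among them probe sets of Sox2, Pax6 and Nkx2-1, regulators of stem cells, eye and lung. The members thus lay near the bottom of the scale in both genotypes.

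**Figure D1:**
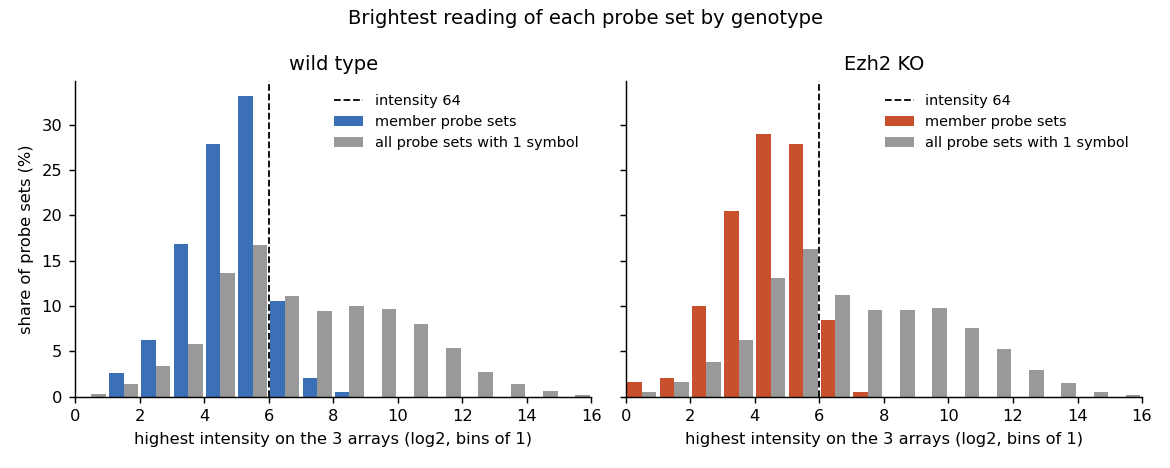
Share of probe sets (%) by the highest intensity they reached on the 3 arrays of a genotype (log2, bins of 1), for member probe sets (colour) and all probe sets with 1 symbol (grey); the dashed line is intensity 64. Members pile up to the left of the line in both genotypes, with 13.2% in wild type and 8.95% in Ezh2 KO at or beyond it, against 58.7% and 58.4% of all probe sets.

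By gene group, Hox genes had 6 of 53 probe sets at the limit in wild type and 4 in Ezh2 KO, Nkx genes 8 of 18 and 5, and Sox genes 8 of 53 and 5. The other groups, with 21 probe sets for Pax, 16 for Lhx, 12 for Dlx, 11 for the genes from Six2 to Six6 and 6 for Irx, had at most 1 in either genotype. The single readable gene was Pax9 among Pax genes, Six5 among its relatives, Lhx2 among Lhx genes, Dlx3 among Dlx genes and Irx5 among Irx genes. Probe sets at the limit in both genotypes numbered 12, in wild type alone 13, in Ezh2 KO alone 5 and in neither 160. The 5 that reached it in Ezh2 KO alone belonged to Hoxb4, Hoxc6, Irx5, Lhx2 and Sox15. Of these, Irx5 and Sox15 stood over the limit on 1 Ezh2 KO array each, and so did the Hoxc6 probe set concerned. Lhx2 and Hoxb4 stood over it on all 3. Hoxa7, at 64.4 on 1 wild type array, lay just inside the limit and just under the filter for tests.

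For tests between genotypes, 1 probe set stood for each gene, and a gene entered where its top reading was at or over the array-wide median. This left 22 of 109 member genes (20.2%), against 63.6% of all 18193 genes. Of the 22, 10 passed that filter in both genotypes, 8 in wild type alone and 4 in Ezh2 KO alone, so 12 entered through 1 genotype alone and were partly selected for a difference. For 20 of the 22, at least 1 array read under 64. In limma with culture as a block, 1 of 22 rose in Ezh2 KO (4.55%), where 8.35% of all 11572 tested genes did. Another 2 fell (9.09%), against 7.98% of all tested genes. The member that rose was Lhx2, and those that fell were Hoxa3 and Sox3, with Benjamini-Hochberg adjustment over all tested genes and a threshold of 0.05. All 3 called members were among the 12 that entered through 1 genotype alone, the one where they are high, so nothing is read from these shares. With median centring 863 genes were higher and 411 lower in the whole set, against 966 and 924, and the members again gave 1 and 2 calls.

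The arrays of the genotypes did not overlap for 5 tested members. All Ezh2 KO arrays lay above all wild type arrays for Lhx2 and Hoxb4 (9.09% of members, 20.1% of all tested genes). All lay below for Sox4, Sox12 and Nkx1-2 (13.6% of members, 27.5% of all tested genes). Both shares were under those of the whole array. Lhx2 and Hoxb4 entered the test through Ezh2 KO alone and Nkx1-2 through wild type alone, so nothing is read from these shares. The 87 members too dim to test read between 0.678 and 64.4, and 77 of them overlapped between genotypes. All Ezh2 KO arrays were above for 5 (5.75%, against 4.65% of all genes too dim to test) and below for 5 (5.75%, against 7.01%), and 2 of these 10 lay wholly under the floor of 11.3.

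**Figure D2:**
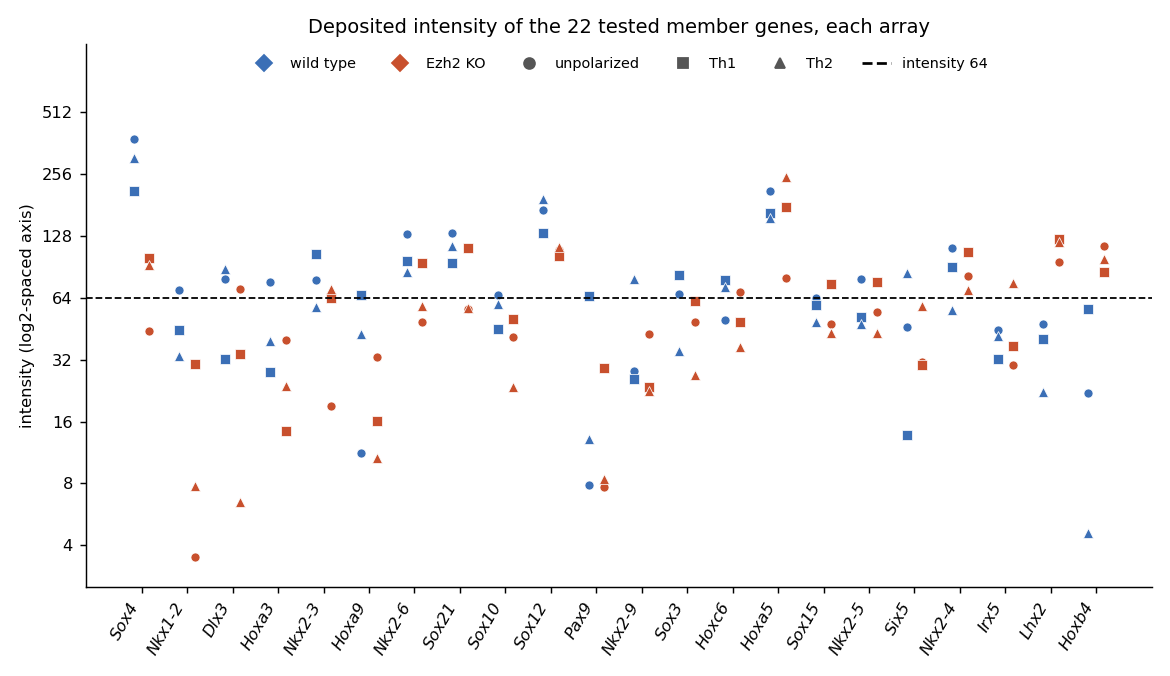
Deposited intensity (log2-spaced axis) of each of the 22 tested member genes on the 3 wild type (blue) and 3 Ezh2 KO (orange) arrays, with the culture given by the marker; genes run from the lowest to the highest mean log2 difference. Sox4 at the left and Lhx2 and Hoxb4 at the right have genotypes that do not overlap, and most other genes straddle the dashed line at 64.

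Lhx2 encodes a LIM homeodomain factor of the eye, forebrain and hair follicle. Its probe set read 47.6, 40.6 and 22.4 without the knockout and 95.7, 124 and 119 with it. Every Ezh2 KO array was above every wild type array, and every wild type reading was under 64. The log2 difference was 1.68 ± 0.71 (SD, n = 3 cultures), or 3.20-fold higher, with a limma adjusted p of 0.0474. Lhx2 entered the test through Ezh2 KO alone, the genotype where it is high, and its adjusted p was 0.122 without that filter. The differences per culture were 1.01 in unpolarized, 1.62 in Th1 and 2.41 in Th2 cells. The call was lost with no floor under low values (adjusted p = 0.0513) and with every probe set tested on its own (adjusted p = 0.0562). It was also lost with any 1 culture left out, where, as without the filter, no gene on the arrays passed.

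Hoxb4, a homeobox gene known for expanding blood stem cells, had the highest mean difference among tested members without passing the test. It read 21.9, 56.3 and 4.59 (wild type) against 115, 85.6 and 98.8 (Ezh2 KO). The wild type values were scattered and all under 64, and the Ezh2 KO values were all above it. The difference was at least 2.04 ± 1.30 (n = 3), with 1 wild type array at the floor, and the limma adjusted p was 0.0880. It ranged over the alternatives from 0.0180, with an intensity trend and robust prior, to 0.252. Hoxb4 entered the test through Ezh2 KO alone, the genotype where it is high, and its limma adjusted p was 0.195 without that filter. The other Hoxb4 probe set, with a highest reading of 45.2, was higher in Ezh2 KO by 0.52 ± 0.27. The neighbouring Hoxb3 and Hoxb5 did not share this pattern: their probe sets stayed under 64 on all arrays, with mean differences from -0.96 to -0.38.

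Start regions of both genes are shown because PRC2 is known to gather at start regions rich in CpGs, and these are the members with the highest mean differences. Each run covers 250 bases before to 50 after a RefSeq transcript start (GRCm38.p6), in the direction of the gene, with CpG dinucleotides in capitals. The Lhx2 run is the first of 2 listed starts (chr2:38339031-38339330, plus strand) and the Hoxb4 run the only one (chr11:96318017-96318316, plus strand).
Lhx2: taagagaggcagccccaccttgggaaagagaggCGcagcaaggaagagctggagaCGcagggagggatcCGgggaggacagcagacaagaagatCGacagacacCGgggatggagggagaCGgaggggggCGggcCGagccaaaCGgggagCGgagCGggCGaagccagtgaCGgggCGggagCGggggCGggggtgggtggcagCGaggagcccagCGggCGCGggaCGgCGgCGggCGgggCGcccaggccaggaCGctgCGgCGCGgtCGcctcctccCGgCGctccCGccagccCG
Hoxb4: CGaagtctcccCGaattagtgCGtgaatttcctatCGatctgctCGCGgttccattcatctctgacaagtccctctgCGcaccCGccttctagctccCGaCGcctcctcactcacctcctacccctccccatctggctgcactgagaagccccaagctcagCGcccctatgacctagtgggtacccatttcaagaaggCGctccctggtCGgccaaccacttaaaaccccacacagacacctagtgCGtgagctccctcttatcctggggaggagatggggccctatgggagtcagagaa
The Lhx2 window holds 34 CpGs, with more than 92.3% of the 32851 promoters in that table, and the Hoxb4 window 14, with more than 63.7%. The Hoxb4 window has fewer CpGs than the median of 16 for genes on the array.

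Sox4, an HMG box factor needed in early T cell development and known to restrain Gata3, had the lowest mean difference of the tested members. Its brightest probe set read 379, 212 and 305 for wild type against 44.0, 99.7 and 92.4 for Ezh2 KO. All Ezh2 KO arrays lay below all wild type arrays. The log2 difference was -1.97 ± 1.03 (n = 3), 3.93-fold lower, and just missed the threshold (limma adjusted p = 0.0648). It passed in 4 of 11 alternatives. These were median centring (adjusted p = 0.0453), a floor at the 40th percentile (0.0465) and no culture block (0.0195). The last was an intensity trend with robust prior (0.00455). The adjusted p was 0.153 without the filter and 0.124 to 0.191 with any 1 culture left out.

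A second Sox4 probe set gave the same direction and less spread. It read 88.5, 62.9 and 54.3 without the knockout and 17.3, 9.34 and 15.95 with it, again without overlap. With 1 Ezh2 KO array at the floor its difference was -2.20 ± 0.38 or larger in size, and it passed when every probe set was tested on its own (limma adjusted p = 0.0297). Another one did not separate the genotypes: it read 85.0, 51.8 and 20.7 (wild type) against 64.1, 44.8 and 44.9 (Ezh2 KO) (difference 0.17 ± 0.83). The 5 remaining Sox4 probe sets stayed under 64 everywhere, with a highest reading of 54.0 and mean differences from -0.71 to 0.50. One of them was higher in Ezh2 KO in all 3 cultures, by 0.50 ± 0.21.

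Sox12 belongs to the same SoxC group as Sox4. It read 171, 132 and 193 for wild type against 110, 102 and 114 for Ezh2 KO. The genotypes did not overlap, and all 6 arrays were above 64. The difference was -0.59 ± 0.20 (n = 3), 1.51-fold lower, at the edge of the threshold (limma adjusted p = 0.0509). It passed in 2 of 11 alternatives, with a floor at the 40th percentile (adjusted p = 0.0392) and without the culture block (0.0427). The adjusted p was 0.0769 with median centring and at most 0.1805 over all 11. A second Sox12 probe set, over the limit on 1 wild type array (66.7 in Th1), gave -1.11 ± 1.29, and the last read at most 12.8.

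Windows of the same kind are shown for Sox4 and Sox12. In the brightest probe set of each, all Ezh2 KO arrays lay below all wild type arrays. Sox4 (chr13:28953650-28953949, minus strand) and Sox12 (chr2:152397997-152398296, minus strand) have 1 listed start each, and CpG dinucleotides are again in capitals.
Sox4: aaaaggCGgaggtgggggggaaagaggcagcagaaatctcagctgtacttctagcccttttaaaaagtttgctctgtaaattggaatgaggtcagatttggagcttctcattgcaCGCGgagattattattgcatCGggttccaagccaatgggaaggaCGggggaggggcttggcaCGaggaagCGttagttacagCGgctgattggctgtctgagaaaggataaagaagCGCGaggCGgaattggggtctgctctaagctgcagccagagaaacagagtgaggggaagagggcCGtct
Sox12: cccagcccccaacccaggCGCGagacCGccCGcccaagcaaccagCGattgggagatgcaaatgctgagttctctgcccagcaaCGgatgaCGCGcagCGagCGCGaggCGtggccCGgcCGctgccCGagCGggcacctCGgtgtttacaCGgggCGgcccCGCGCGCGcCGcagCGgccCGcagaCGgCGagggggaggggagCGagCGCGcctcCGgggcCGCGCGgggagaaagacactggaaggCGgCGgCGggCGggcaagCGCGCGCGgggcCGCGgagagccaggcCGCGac
The Sox12 window holds 47 CpGs, with more than 98.6% of all listed promoters, and the Sox4 window 12, with more than 60.4%. The Sox4 window, like that of Hoxb4, lies under the median of 16 for genes on the array. Of the 4 genes shown, only Lhx2 passed the test.

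**Figure D3:**
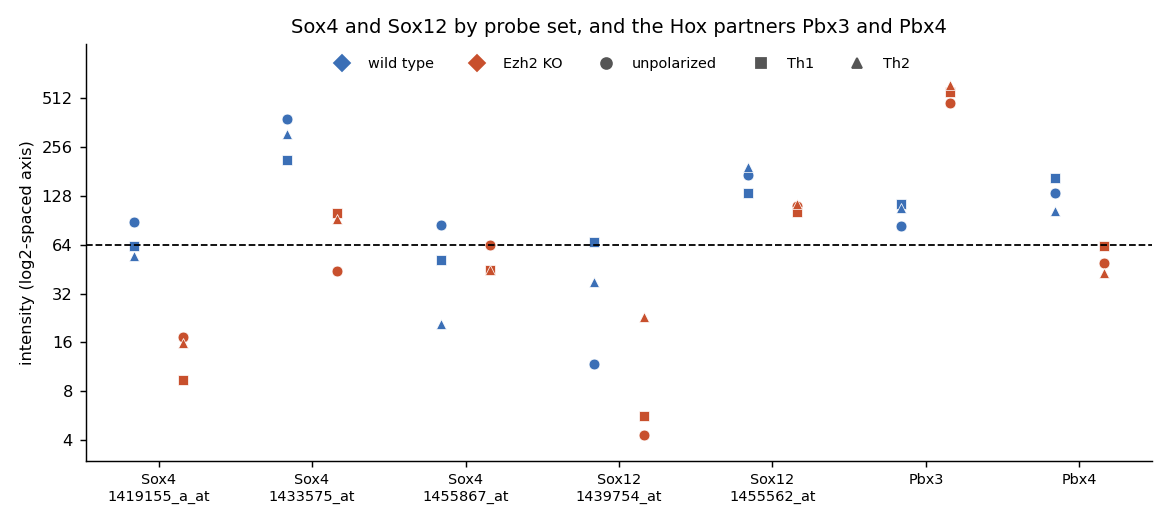
Intensity (log2-spaced axis) on each array for the Sox4 and Sox12 probe sets that reached 64 (dashed line), named below the axis, and for the Hox partner genes Pbx3 and Pbx4; colours mark genotype and markers the culture. The first and second Sox4 probe sets and the brighter Sox12 probe set have all Ezh2 KO arrays below all wild type arrays, and the remaining Sox4 probe set overlaps.

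Among the other Sox genes, Sox3, a neural and pituitary factor, passed with a small change. It read 66.7, 83.0 and 35.3 without the knockout and 49.0, 61.5 and 27.0 with it. Each Ezh2 KO array was lower than its wild type partner, but the genotypes overlapped and only 2 readings reached 64. The difference was -0.42 ± 0.03 (n = 3), 1.34-fold lower (limma adjusted p = 0.0470). Sox3 entered the test through wild type alone, where it is high, and its adjusted p was 0.0857 without the filter. The SD was far under the median of 0.75 for tested members. Of 11 alternatives, only the one with no floor kept the call (adjusted p = 0.0489 to 0.506 over all of them). Its other probe set, under 64 on all arrays, gave -0.33 ± 0.43.

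Sox21, a neural factor, read 133, 94.1 and 114 (wild type) against 56.7, 112 and 56.9 (Ezh2 KO). It was lower in unpolarized and Th2 cells and higher in Th1 cells, and it did not pass (-0.66 ± 0.79, limma adjusted p = 0.248). Sox10 and Sox15 also failed the test, at -0.61 ± 0.75 and -0.08 ± 0.37. The single Sox13 probe set read at most 56.7, and all Sox5 probe sets stayed under 64 as well. Of 6 markers of gamma delta T cells, beside Sox13, only 2 had a probe set of 1 symbol. Their summed intensities went from 58.0 to 127 in wild type to 220 to 239 in Ezh2 KO, with 1 of 2 tested higher (Cd163l1). That call held in 8 of 12 alternatives, not without the filter or with any 1 culture left out. The part of such cells in these readings was not tested.

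In the Hox clusters, signal was sparse. Hoxa genes had 5 of 18 probe sets at the limit in wild type and 1 in Ezh2 KO, Hoxb genes 0 of 12 and 1, Hoxc genes 1 of 11 and 2, and Hoxd genes 0 of 12 in both. The highest Hoxd reading was 39.1, from the non-coding gene Hoxd3os1. Median readings over the arrays of a genotype went from 17.6 to 17.3 for Hoxa, from 17.1 to 12.7 for Hoxb, from 9.88 to 9.86 for Hoxc and from 6.06 to 11.28 for Hoxd, wild type first. The Hoxc and Hoxd medians of both genotypes lay under the floor set for tests (11.33), so no change is read from them.

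Hoxa5, a regulator of lung and skeletal patterning, read 211, 165 and 156 for wild type against 80.4, 177 and 248 for Ezh2 KO. The Ezh2 KO arrays both undercut and exceeded the wild type ones, with differences of -1.40, 0.10 and 0.66 by culture (mean -0.21 ± 1.06, limma adjusted p = 0.762). This signal comes from a probe set of the x type, whose probes may match other transcripts, and the other Hoxa5 probe set read at most 18.3. How much of the signal comes from other transcripts was not tested.

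Hoxa3, needed for the thymus and pharyngeal arches, had the lowest adjusted p of the members. Its probe set read 76.8, 27.8 and 39.4 without the knockout and 39.7, 14.3 and 23.7 with it. Each Ezh2 KO array was lower than its partner, and only the wild type unpolarized array reached 64. The difference was -0.88 ± 0.13 (n = 3), 1.84-fold lower (limma adjusted p = 0.0271), and Hoxa3 entered the test through wild type alone, where it is high. With a floor at the 40th percentile the fall was 0.40 (adjusted p = 0.366), and the call was also lost without the culture block (0.254), with an intensity trend (0.299), without the filter (0.0797) and with any 1 culture left out (0.106 to 0.121). A second Hoxa3 probe set, at 90.6 in wild type Th1 cells and under 64 elsewhere, gave -0.26 ± 1.21, and the remaining probe sets stayed under 64.

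Hoxc6 read 49.8, 78.4 and 72.0 (wild type) against 68.1, 48.6 and 36.8 (Ezh2 KO), with overlap (-0.40 ± 0.75, limma adjusted p = 0.426). Its x-type probe set read 39.9, 34.0 and 63.98 (just under the limit) for wild type against 32.1, 65.8 and 30.1 for Ezh2 KO. Neither separated the genotypes.

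**Figure D4:**
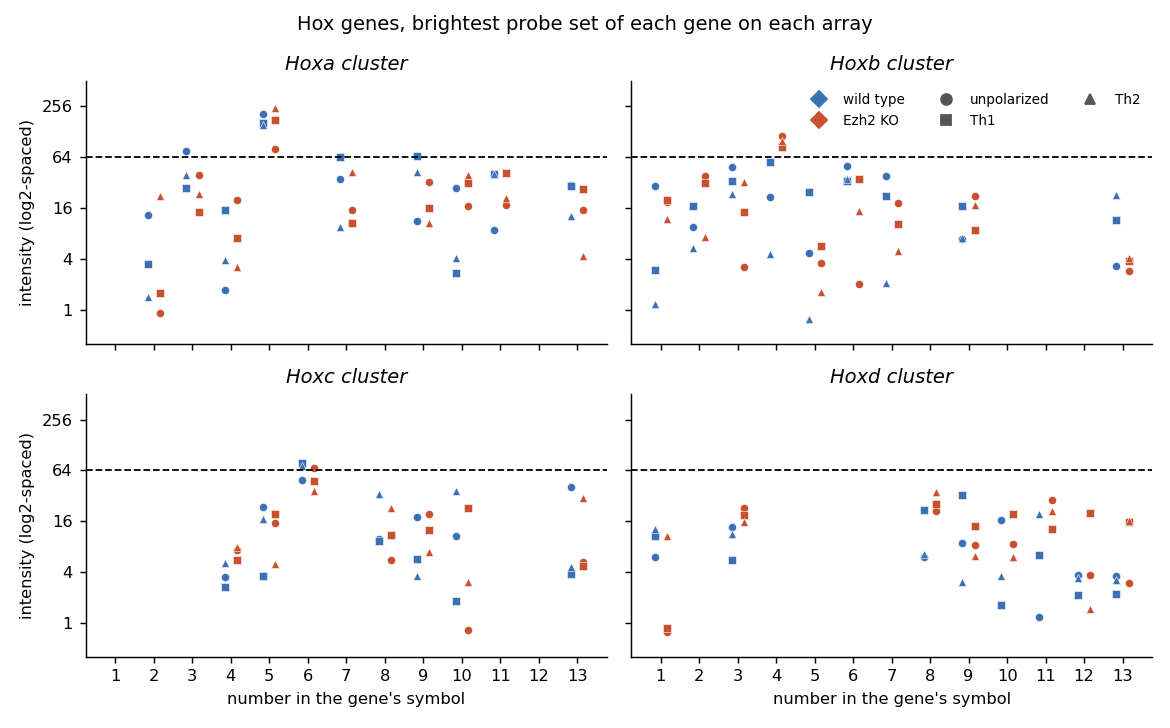
Intensity (log2-spaced axis) of the Hox genes on each array, 1 probe set per gene, by the number in the gene's symbol, in 1 panel per cluster; blue is wild type, orange Ezh2 KO, and the dashed line is intensity 64. Hoxa5 lies above the line on all arrays, and the 3 Ezh2 KO readings of Hoxb4 lie above it and its wild type readings below. Non-coding genes are left out, and the highest reading in the Hoxd panel is 35.1 (Hoxd8).

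Nkx genes had several readings near the limit and no genotype difference that passed. Nkx1-2, a factor of the posterior neural tube, read 70.1, 44.6 and 33.3 without the knockout and 3.50, 30.5 and 7.79 with it. The genotypes did not overlap, and 2 Ezh2 KO arrays were at the floor. The fall was by at least 1.58 ± 1.04 (n = 3; limma adjusted p = 0.0942). Nkx1-2 entered the test through wild type alone, where it is high, and its limma adjusted p was 0.205 without the filter. Of its other probe sets, both under 64 on all arrays, one was lower in Ezh2 KO by 1.36 ± 0.30 and the other higher by 0.47 ± 1.09.

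Nkx2-6, a heart and pharynx factor, read 131, 96.5 and 85.6 (wild type) against 48.6, 94.9 and 58.6 (Ezh2 KO). Each Ezh2 KO array was lower than its partner, the Th1 one hardly so (-0.67 ± 0.71, limma adjusted p = 0.209). Its x-type probe set ranged from 6.26 to 74.2 without a pattern (0.38 ± 1.83). Nkx2-4 (0.04 ± 0.42) and the heart factor Nkx2-5 (-0.04 ± 0.56) overlapped, with ranges of 56.1 to 112 and 43.2 to 79.3. Nkx2-9 stood at 79.1 in wild type Th2 cells and from 22.6 to 42.5 elsewhere (-0.45 ± 1.23).

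Nkx2-3, which shapes the blood vessels of spleen and gut lymphoid tissue, gave opposite mean differences in its probe sets. The first read 78.2, 105 and 58.0 for wild type against 19.1, 63.6 and 70.9 for Ezh2 KO (-0.82 ± 1.16). The second read 10.4, 54.0 and 75.03 without the knockout and 77.6, 62.0 and 79.5 with it (1.02 ± 1.52). Neither passed (limma adjusted p = 0.316 and 0.333 with every probe set tested on its own).

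The remaining groups held 1 readable gene each beside Lhx2. Dlx3, a factor of skin and placenta, read 79.0, 32.3 and 88.1 (wild type) against 70.8, 34.2 and 6.53 (Ezh2 KO). The Ezh2 KO Th2 array was at the floor, and the other pairs differed by -0.16 and 0.08 (mean -1.01 ± 1.69, limma adjusted p = 0.370). Irx5 stood at 75.3 in Ezh2 KO Th2 cells and from 30.0 to 44.7 elsewhere (0.16 ± 0.72). Six5, a neighbour of the myotonic dystrophy kinase gene, ranged from 13.8 to 84.1 with Th2 readings highest in both genotypes (0.02 ± 0.96). Pax9, a factor of thymus and teeth, exceeded 64 only in wild type Th1 cells (65.7) and overlapped between genotypes (-0.46 ± 0.63).

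Pax5, the identity factor of B cells, is named for that role and not by the rule for naming members. Its probe sets stayed under 64 on all arrays, with readings of 7.87 to 52.3 and 5.98 to 40.1. The B cell markers Cd79a and Ebf1 were also under 64 throughout. Of 6 tested B cell markers 1 rose and 1 fell, with a median of 0.65 (8.35% of all tested genes rose and 7.98% fell). Ms4a1 rose by 2.46 ± 1.05 and passed in 6 of 12 alternatives, not without the filter or with any 1 culture left out. Ighm fell by 0.79 ± 0.17 and passed in 7 of 13, but not with median centring. With its probe sets averaged, the Ighm difference was 0.10, in the other direction. The summed B cell markers went from 7526 to 8905 in wild type to 4649 to 6053 in Ezh2 KO, most of it Ighm.

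**Figure D5:**
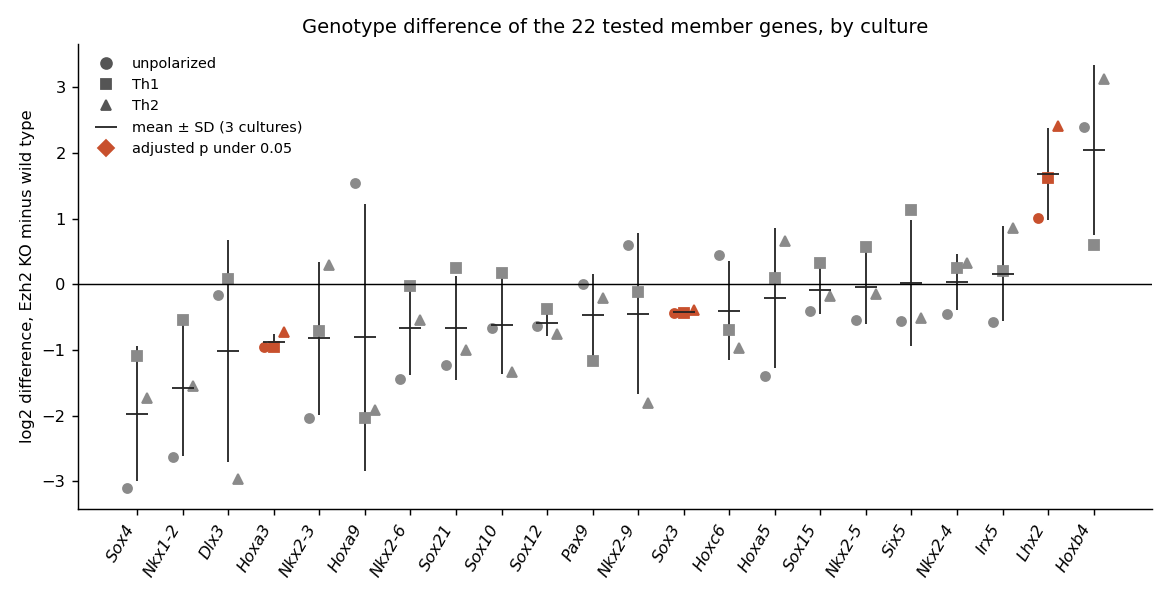
Log2 difference, Ezh2 KO minus wild type, of the 22 tested member genes in each culture (markers), with the mean and SD over the 3 cultures (bars); orange marks genes with a limma adjusted p under 0.05. Lhx2, Hoxa3 and Sox3 are orange, and Hoxb4 and Sox4 have the extreme means (2.04 and -1.97) with wide bars.

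The genotype difference of these genes varied widely between cultures. Its SD over the 3 cultures had a median of 0.75 among the 22 tested members and 0.20 among all tested genes. For 20 of the 22 at least 1 array read under 64, and the comparison was not matched for brightness. How much of this spread comes from low signal was not tested. The median difference was -0.46 over the 22, against -0.07 over all tested genes. Without the filter, over all 109 members, it was -0.10, against -0.05 over all genes. The 22 include 8 members that entered through wild type alone and 4 through Ezh2 KO alone, so this median and the counts by culture are partly set by the filter. Over the 10 that passed in both genotypes the median was -0.63, with 9 lower and 1 higher. Neither these values nor the counts by culture below were taken over all genes. With probe sets averaged, 8 members were tested, with a median of -0.06 against -0.09 over all tested genes. Without the Th2 culture the median over the 22 was -0.25. By culture, 5 of the 22 were higher and 16 lower in unpolarized cells (median -0.55, against -0.06 over all tested genes), with Pax9 at the floor in both. In Th1 cells 11 were higher and 11 lower (0.03, against -0.06), and in Th2 cells 6 were higher and 16 lower (-0.53, against -0.06). These cultures have 1 pair of arrays each, so differences among them have no replicate and were not tested.

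No member passed the test between culture conditions. With genotype as a block, 0 of 22 members and 0% of the 11572 tested genes passed limma for Th2 against Th1, Th1 against unpolarized or Th2 against unpolarized cells. At an unadjusted p under 0.05 there were 4, 3 and 2 members, and 878, 632 and 775 genes in all. Sox3 was lower in Th2 than in Th1 cells by 1.23 on the log2 scale in wild type and by 1.19 in Ezh2 KO (limma adjusted p = 0.405). Pax9 was lower in Th2 than in Th1 cells by 2.32 in wild type and by at least 1.36 in Ezh2 KO, where the Th2 array was at the floor (limma adjusted p = 0.567).

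Of the genes that work with these factors, a larger share was bright enough to test. Of 18 tested homeodomain partners and Hox regulators, 1 rose and 3 fell, with a median of -0.26 (8.35% of all tested genes rose and 7.98% fell). Pbx3, a homeodomain partner of Hox proteins, read 83.9, 114 and 107 for wild type against 474, 560 and 616 for Ezh2 KO. Its log2 difference was 2.44 ± 0.12 (n = 3), 5.42-fold higher, with no overlap (limma adjusted p = 0.0143). Its relative Pbx4 went the other way, from 134, 166 and 103 to 49.1, 62.7 and 42.9 (-1.37 ± 0.09, 2.59-fold lower, limma adjusted p = 0.0187). All Ezh2 KO readings of Pbx4 lay under the filter, so Pbx4 entered the test through wild type alone, where it is high. Pbx3 passed the filter in both genotypes. The Groucho corepressor gene Tle1 fell by 1.61 ± 0.45, and Men1, whose product menin works in complexes that keep Hox genes active, by 0.43 ± 0.05. Pbx3, Pbx4 and Tle1 passed in 8 of 12 alternatives and lost the call without the filter and with any 1 culture left out. Men1 passed in 5 of 13 and also lost its call with median centring and quantile normalization.

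Cofactors of LIM homeodomain proteins (0 of 8 tested genes passed) and partners of proteins such as Pax9 and Six5 (0 of 6) had medians of -0.00 and 0.12. In limma at an unadjusted p under 0.05 there were 2 of 8 and 2 of 6, where 38.7% of all tested genes were. The nearest in the LIM list was the LIM-only gene Lmo2, at 1.04 ± 0.44 (limma adjusted p = 0.0511). Of 11 other HMG box and Wnt pathway genes 0 rose and 2 fell, the repressor genes Hbp1 (by 0.49 ± 0.05) and Cic (by 0.56 ± 0.17), and both calls were lost with median centring. Of 11 PRC2 subunit genes 1 rose (Jarid2) and 1 fell (Ezh2), and neither passed with median centring.

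Other developmental factors known as Polycomb targets were seldom bright enough either: 20 of 111 with a probe set (18.0%) could be tested. Of these 2 rose and 0 fell, with a median of 0.26, where 8.35% of all tested genes rose and 7.98% fell. Eomes, a T-box factor of effector and memory T cells, rose 5.57-fold (2.48 ± 0.27, limma adjusted p = 0.0177). Vax2, a homeobox gene of the ventral eye, rose 2.82-fold (limma adjusted p = 0.0369), with readings of 14.7, 53.2 and 45.3 without the knockout and 55.2, 103 and 140 with it. Its wild type readings, like those of Lhx2, were all under 64, so it entered the test through Ezh2 KO alone. Its call was lost without the filter, without the culture block and with any 1 culture left out.

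CpG content of the members lay close to that of other genes on the array. Promoter windows were listed for 74 member genes, 88 windows in all, and each held at least 1 CpG (searched as CG, which reads the same on both strands), as did 94.6% of all 32851 windows. The members' median was 17 CpGs per window, with a range of 2 to 47, against 16 for windows of all genes with a probe set of 1 symbol and 7 for all windows. A GC share of at least 50% with an observed to expected CpG ratio of at least 0.6 held in 56.8% of member windows and 51.9% of those of array genes. Windows of member genes that reached intensity 64 had a median of 16 CpGs, and those of the other members 17.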

How the data were processed

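Intensities of 6 Affymetrix 3' expression arrays were analysed. The authors' deposited values are linear intensities, 1 per probe set and array. Affymetrix Expression Console is named without a version in the submitters' processing notes, and the sources used here do not give the summarization method. Each array has the same mean, 500.003, once 2% of values are trimmed from both tails, as scaling to a common target gives. Symbols came from the platform's annotation table, and all 190 member probe sets matched an Entrez identifier of RefSeq assembly GRCm38.p6, with 0 symbols changed.

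Readings under 11.3, the 20th percentile, were set to it before log2, and each gene was represented by its probe set of highest mean. A gene was tested if its top reading was at or over the array-wide median (64.4). A log2 difference is a lower bound where the lower genotype alone has arrays at the floor, and no bound where both have. In limma 3.58.1 (R 4.3.3), culture and genotype were fitted additively to all 6 arrays (2 residual degrees of freedom, prior 1.66), with eBayes and Benjamini-Hochberg adjustment over 11572 genes. Values ± SD are over the 3 cultures. The script was tested on simulated data. Intensities of different probe sets are not amounts of RNA that can be compared.

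Members named are those past the threshold, those at log2 1 or more with one sign in all cultures, the 10 with the highest mean, the highest of each group, those with several readable probe sets, and those 2-fold apart between Th2 and Th1 in both genotypes. The members, lists and rule were chosen with earlier results of these data known. Alternatives changed scaling, filter, floor, probe set choice, block, prior and cultures. No paired numbering exists in the labels beyond the culture itself.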

Additional observations from a re-analysis of the deposited data

Results flagged for a closer look

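Hoxa9, a homeobox gene of blood progenitors, differed between genotypes in opposite directions in different cultures, by log2 1 or more each way. Ezh2 KO minus wild type was 1.54 in unpolarized cells, -2.04 in Th1 cells and -1.91 in Th2 cells. The readings were 11.2, 66.1 and 42.7 for wild type against 32.9, 16.1 and 10.6 for Ezh2 KO, in the order unpolarized, Th1, Th2, and 1 of these 6 reached 64. Each culture has 1 pair of arrays, so the difference between cultures was not tested. The second Hoxa9 probe set, under 64 on all arrays, gave 0.05 ± 1.63.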

How the results depend on the processing

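The number of members higher in Ezh2 KO, 1, became 0 with no filter on dim genes, with no floor and with every probe set on its own, and 2 with a floor at the 40th percentile and with an intensity trend and robust prior. The number lower, 2, became 0 with no filter and with a gene's probe sets averaged, and 1 with quantile normalization and with the trend. With probe sets averaged neither Hoxa3 nor Sox3 was bright enough to test. With any 1 culture left out both ranged from 0 to 0, since no gene passed limma then (2952 to 3227 genes, 6 to 11 of them members, at an unadjusted p under 0.05); with no filter also 0 genes passed (4711 genes, 9 of them members, unadjusted). The genes called changed too: Sox4 passed with median centring, the higher floor, no block and the trend, and Lhx2 in 6 of its 12 alternatives. The median difference of tested members moved from -0.46 over 22 to -0.10 over 109 with no filter, and to -0.062 over 8 with probe sets averaged. These are different sets of genes. The median lay between -0.48 and -0.25 with 1 culture left out, -0.25 without Th2. The causes were not tested. Member probe sets at the limit, 25 in wild type and 17 in Ezh2 KO, were 88 and 70 at log2 5, 5 and 1 at log2 7, and 5 in each with all 3 arrays needed. Keeping only genes with a mean over the 60th percentile left 0 members, so no value could be had. No culture contrast called a member in any alternative run, while the trend called 44 over all genes and contrasts. Of all genes, 863 were higher and 411 lower with median centring, against 966 and 924, and 1803 and 2306 with the trend. Lhx2, Hoxb4, Sox4, Sox12, Hoxa3, Sox3 and Nkx1-2 kept their direction in every alternative run that tested them. Each had one sign in all 3 cultures, so leaving 1 culture out could not turn it. Changing the filter, the block or the prior left the differences themselves unchanged. With probe sets averaged only Lhx2 of these was tested, so that run does not bear on the direction of the others. No named member that passed in any setting changed sign where it was tested. Signal over background limits all of these values.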
